A study of Mus musculus with 2 samples.

Results

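The genes described here are 8 genes by which deep-layer neurons of the mouse cerebral cortex are commonly recognised: Fezf2, Bcl11b, Tbr1, Sox5, Etv1, Tle4, Zfpm2 and Crym. They were chosen by name, with earlier results of these data known, as 8 of the 21938 protein-coding genes of the GENCODE M21 annotation. Each was examined over its annotated body and 50 kb on each side, in mm10 coordinates. DNase-seq, which maps accessible chromatin by sequencing the ends that the nuclease DNase I leaves where DNA is exposed, had been run on the left cerebral cortex of male B6CASTF1/J mice at 14 days of age, first-generation hybrids of C57BL/6J and CAST/EiJ. The design held 1 group, cortex, with 2 libraries: the label of replicate 1 named 3 males, that of replicate 2 named 1 male, and both carried the same donor identifier. There was no second tissue, age, strain or treatment, so the libraries are described side by side and the 8 genes are set beside the rest of the same genome, without a test.

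The deep layers of the cortex hold the neurons whose axons leave it for the thalamus, brainstem and spinal cord. Fezf2 and Bcl11b (Ctip2) are zinc-finger factors of subcerebral projection neurons, Tbr1 is a T-box factor of corticothalamic neurons, Sox5 is an SRY-related factor that times the production of corticofugal neurons, and Etv1 (Er81) is an ETS factor of layer V. Tle4 is a Groucho-type corepressor of layer VI, Zfpm2 (Fog2) is a cofactor of GATA factors found in corticothalamic neurons, and Crym is a thyroid hormone-binding protein of subcerebral neurons. In a whole-tissue library, fewer cells with an open site and less cleavage per cell cannot be told apart.

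Some distal sites carried more signal than the genes' own starts, and their sequences are shown first because the results return to them. Each is the strongest site of its gene that lay over 2 kb from any annotated start and was a peak in both libraries, read from the C57BL/6J reference (GRCm38) on the strand of the named gene, 5′ to 3′. Capitals mark bases inside a footprint in both libraries, a footprint being a short stretch that the authors called as protected from cleavage within accessible DNA. The CAST/EiJ allele, which the hybrid also carries, may differ from these letters, and its part in the signal was not tested. The Fezf2 site is shown in part, 141 of its 180 bases.
Fezf2, chr14:12296481-12296621, minus strand: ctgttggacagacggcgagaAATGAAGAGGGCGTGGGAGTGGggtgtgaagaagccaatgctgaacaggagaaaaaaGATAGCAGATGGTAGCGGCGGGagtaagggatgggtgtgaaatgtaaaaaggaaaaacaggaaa
Bcl11b, chr12:107998841-107999020, minus strand: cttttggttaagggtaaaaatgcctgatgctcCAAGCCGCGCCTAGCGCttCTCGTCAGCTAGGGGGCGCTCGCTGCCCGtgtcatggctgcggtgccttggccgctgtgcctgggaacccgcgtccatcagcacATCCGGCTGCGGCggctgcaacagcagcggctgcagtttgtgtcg
Tbr1, chr2:61815581-61815820, plus strand: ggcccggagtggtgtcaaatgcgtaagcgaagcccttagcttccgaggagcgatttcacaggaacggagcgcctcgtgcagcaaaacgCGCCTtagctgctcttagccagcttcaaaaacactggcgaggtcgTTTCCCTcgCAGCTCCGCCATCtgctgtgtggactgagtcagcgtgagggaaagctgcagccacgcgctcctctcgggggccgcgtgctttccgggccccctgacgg
Sox5, chr6:144056781-144057000, minus strand: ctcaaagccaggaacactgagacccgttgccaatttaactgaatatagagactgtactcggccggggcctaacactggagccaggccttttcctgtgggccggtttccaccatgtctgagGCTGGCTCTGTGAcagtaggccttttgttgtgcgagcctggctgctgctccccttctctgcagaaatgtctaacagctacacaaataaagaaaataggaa
Etv1, chr12:38790061-38790240, plus strand: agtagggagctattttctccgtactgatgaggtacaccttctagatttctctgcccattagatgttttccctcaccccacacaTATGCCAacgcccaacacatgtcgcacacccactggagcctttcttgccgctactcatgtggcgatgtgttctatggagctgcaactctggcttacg
Tle4, chr19:14436101-14436300, minus strand: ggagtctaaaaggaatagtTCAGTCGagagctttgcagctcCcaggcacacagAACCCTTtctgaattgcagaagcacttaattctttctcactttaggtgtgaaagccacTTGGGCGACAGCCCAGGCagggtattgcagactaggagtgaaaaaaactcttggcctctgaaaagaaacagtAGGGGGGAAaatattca
Zfpm2, chr15:41079741-41079920, plus strand: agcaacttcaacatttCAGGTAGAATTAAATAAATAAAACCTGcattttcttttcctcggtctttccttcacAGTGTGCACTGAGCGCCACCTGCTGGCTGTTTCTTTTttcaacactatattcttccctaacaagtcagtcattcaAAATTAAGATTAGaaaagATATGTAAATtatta
Crym, chr7:120228641-120228820, minus strand: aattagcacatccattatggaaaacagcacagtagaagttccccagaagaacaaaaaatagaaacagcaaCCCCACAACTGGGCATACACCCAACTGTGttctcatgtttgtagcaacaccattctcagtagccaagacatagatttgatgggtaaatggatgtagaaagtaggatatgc

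A pair of promoter peaks is shown because they held the highest mean promoter signals of the 8 genes. Both lie upstream of the annotated start, and 300 of the 320 bases of the Tle4 peak are shown.
Tle4, chr19:14598267-14598566, minus strand: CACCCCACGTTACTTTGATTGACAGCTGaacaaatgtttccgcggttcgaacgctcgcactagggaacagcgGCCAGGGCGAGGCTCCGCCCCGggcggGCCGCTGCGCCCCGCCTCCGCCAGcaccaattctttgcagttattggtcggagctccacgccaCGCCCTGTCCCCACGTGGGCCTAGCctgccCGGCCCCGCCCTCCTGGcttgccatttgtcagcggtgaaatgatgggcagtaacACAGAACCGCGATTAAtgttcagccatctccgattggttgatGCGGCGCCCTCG
Bcl11b, chr12:108004021-108004280, minus strand: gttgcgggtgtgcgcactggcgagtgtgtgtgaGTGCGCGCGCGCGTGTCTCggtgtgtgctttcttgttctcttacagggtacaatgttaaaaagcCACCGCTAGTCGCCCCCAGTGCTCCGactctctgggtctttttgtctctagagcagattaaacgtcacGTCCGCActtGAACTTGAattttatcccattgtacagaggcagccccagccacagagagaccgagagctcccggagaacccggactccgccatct

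Replicate 1 held 150726 peaks and 380111 footprints and replicate 2 held 155536 peaks and 379156 footprints, and intervals with a false discovery rate (q) of up to 0.05 covered 1.58% and 1.57% of the genome. Peak signal is the authors' value for the height of each peak, scaled by them to sequencing depth. The number of reads is not stated in the sources used here, but low signals were whole multiples of a step. If a step is 1 read, a peak of median height held 116 reads in replicate 1 and 108 in replicate 2, so its counting error was 9.28% and 9.62%. The tissue label was checked on defining markers, counted as open where a peak lay within 1000 bp of a start in both libraries. All 4 excitatory neuron genes, 6 of 6 inhibitory neuron genes, 4 of 4 astrocyte genes and 4 of 4 striatal projection neuron genes were open, as were 2 of 4 microglial, 2 of 3 endothelial, 0 of 3 oligodendrocyte and 0 of 4 liver genes. By the same rule 66.7% of all protein-coding genes were open. With the striatal genes open as well, the counts do not set cortex apart from striatum. The summed promoter signal of the 4 excitatory genes was 8.06 in replicate 1 and 13.1 in replicate 2, and that of the 6 inhibitory genes was 6.51 and 5.52. For the 4 striatal genes it was 5.96 and 5.41.

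All 8 genes had an accessible promoter in both libraries, a peak within 1000 bp of any annotated start, which held for 66.7% of all protein-coding genes. With all but one of the 8 below the median, the height of these peaks was mostly modest. Tle4 had by far the highest signal, 15.3 in replicate 1 and 21.2 in replicate 2 (mean 18.2 ± 4.14, SD of 2 libraries here and below), at percentile 99.8 of the 14628 open protein-coding genes. The median over these open genes was 3.62 in replicate 1 and 4.04 in replicate 2, and the other 7 genes lay below it in both.

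Bcl11b had a promoter signal of 2.47 in replicate 1 and 2.64 in replicate 2, at percentile 36.2 of open genes. Etv1 had 1.95 and 2.91 (percentile 34.8), and Tbr1 had 1.50 and 2.03 (percentile 26.5). The next in order, Zfpm2 at 1.25 and 1.25 and Sox5 at 0.867 and 1.12, stood at percentiles 19.4 and 15.3. The Sox5 values came from different promoters, at the outermost start in replicate 1 and 572 kb into the gene in replicate 2. Its percentile is thus of a mean over both, and no single Sox5 promoter had a mean above 0.903. The equal Zfpm2 values came from neighbouring peaks, since the peak at the start was the stronger in replicate 1 (1.25, against 1.15 in replicate 2) and the one 484 bp upstream in replicate 2 (0.796 in replicate 1, against 1.25). Fezf2, at 0.606 and 0.774, and Crym, at 0.706 and 0.602, had the lowest promoter signals of the 8, at percentiles 8.85 and 8.11. The order of the means was Tle4, Bcl11b, Etv1, Tbr1, Zfpm2, Sox5, Fezf2 and Crym, and of these neighbours Bcl11b and Etv1, Etv1 and Tbr1, and Fezf2 and Crym overlapped in their ranges over the libraries. If a step is 1 read, the Fezf2 peak rested on 128 and 126 reads and the Crym peak on 149 and 98, a counting error of 8.84% and 8.91% for Fezf2 and 8.19% and 10.1% for Crym.

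**Figure D1:**
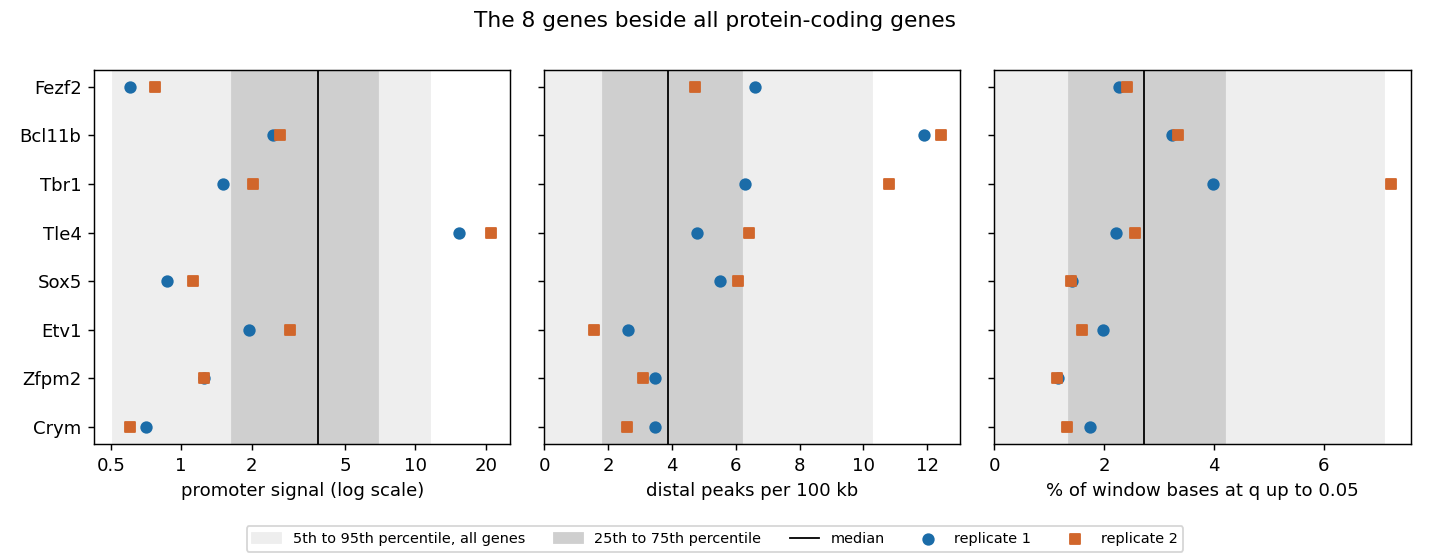
Promoter signal (left, log scale), distal peaks per 100 kb (middle) and the percentage of window bases with q up to 0.05 (right) for each of the 8 genes, with replicate 1 as circles and replicate 2 as squares. Grey bands give the 5th to 95th and 25th to 75th percentiles over protein-coding genes (left, open ones only) and the black line their median; Tle4 stands right of the wider band for promoter signal, Bcl11b right of it for distal peaks, and Tbr1 in replicate 2 right of it for distal peaks and for covered bases.

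The 8 genes have 40 distinct annotated starts, which fall into 20 clusters when starts within 500 bp are joined. A peak lay within 500 bp of a start in both libraries at 14 of the 20, and in neither library at the other 6; no cluster was listed in 1 library alone. Over all protein-coding genes, 35.5% of 52546 such clusters were open in both. These include clusters of genes without an open promoter, while all 8 genes here had one. The clusters of open genes alone were not compared. Clusters that begin a coding transcript were open in 10 of 14 cases and those with noncoding transcripts only in 4 of 6.

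Fezf2 was closed at its outermost annotated start, at chr14:12348189 (transcript Fezf2-202), where 0 bp within 500 bp passed q of 0.05 in either library. The signal of 0.606 in replicate 1 and 0.774 in replicate 2 lay at the inner cluster (12345844 to 12345959), from which Fezf2-201 and Fezf2-203 begin. In replicate 1 the lowest q there was 0.00125, so the stricter of the authors' lists, whose peaks all reach q under 0.001, left it out; in replicate 2 it was 0.000241. The inner stretch held 6.54 CpG per 100 bp and the closed one 0.899.

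Bcl11b has a single cluster (108003414 to 108003602), and its promoter peak was centred 549 bp upstream of it in replicate 1 and 569 bp in replicate 2. The longest stretch protected in both libraries, the 26 bases CACCGCTAGTCGCCCCCAGTGCTCCG of the sequence above, held none of the 20 motifs searched. The cluster held 7.32 CpG per 100 bp.

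Tbr1 was open at each of its 3 clusters. The strongest was that of Tbr1-201 at chr2:61804453, with 1.50 in replicate 1 and 2.03 in replicate 2, and the outer noncoding start at 61802930 had 0.526 and 0.866. The inner cluster at 61806262 to 61806273 had 0.497 and 0.596. It counts as open by the edge of an upstream peak, which gave both values and was centred 631 bp away in replicate 1. In replicate 2 a nearer peak, centred 164 bp away and not shared with replicate 1, had 0.344. Replicate 2 was higher at each cluster.

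Sox5 has 4 clusters along a gene of 954 kb, of which the outer 3 were open and the innermost was closed. The outermost, at 144781919 to 144781977, had 0.867 in replicate 1 and 0.903 in replicate 2, and it starts noncoding transcripts only. The coding cluster 572 kb into the gene had 0.644 and 1.12, and the noncoding one next to it 0.786 and 1.02. At the innermost cluster, with 4 transcripts of which 3 are coding, the nearest peak centre lay 20927 bp away in replicate 1 and 21083 bp away in replicate 2.

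Etv1 was open at its 2 outer clusters and closed at the inner 3. The cluster of Etv1-201 and 6 other transcripts had 1.45 in replicate 1 and 1.94 in replicate 2, and the outermost one 0.644 and 0.694. The strongest peak of the promoter, at 1.95 and 2.91, was centred 659 bp upstream of the outermost start. One of the 3 closed clusters begins 3 coding transcripts, among them Etv1-202.

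Tle4 had its full signal at the outer cluster of Tle4-201 and Tle4-202, where 1001 of 1001 bp passed q of 0.05 in both libraries and the lowest q was 7.68e-205 in replicate 1 and 1.99e-202 in replicate 2. The inner noncoding start of Tle4-203 had 0.440 and 0.461 and is left out by the stricter list in both libraries. In the promoter sequence printed above, 144 of 300 bases lay in footprints of both libraries, in 7 stretches, and the SP and KLF motif GGGCGGGG was found once, on the opposite strand and inside one of them. All 3 copies of CCAAT, the motif of NFY, lay outside them.

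Zfpm2 was open at the cluster of Zfpm2-201 and closed at the inner coding start of Zfpm2-203, whose nearest peak centre was 8949 bp away in replicate 1 and 7628 bp away in replicate 2. Crym has a single start, open at 0.706 and 0.602, where 264 bp reached q of 0.001 in replicate 1 and 0 bp in replicate 2. Crym was the only one of the 8 with a promoter signal higher in replicate 1. The 6 closed clusters held between 0.481 and 1.37 CpG per 100 bp and the 14 open ones between 1.40 and 8.49. The ranges meet at the closed innermost Sox5 cluster and the open inner Tle4 cluster. Each of these held 14 CpG, in stretches of 1019 and 1001 bp. The ranges were not set beside the clusters of other genes. None of the closed stretches held any base with q up to 0.05.

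**Figure D2:**
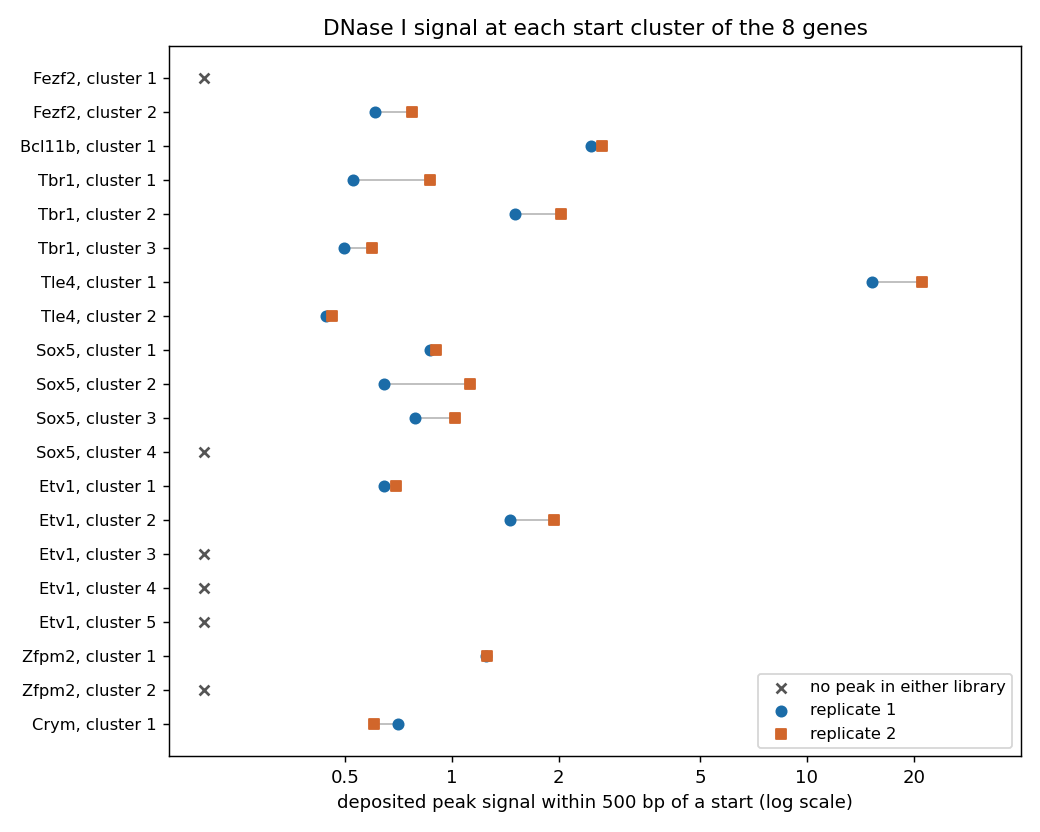
Deposited peak signal (log scale) within 500 bp of each of the 20 start clusters, numbered along each gene from its outermost start, with replicate 1 as circles and replicate 2 as squares. Crosses at the left edge mark the 6 clusters with no peak in either library; Tle4 cluster 1 stands apart at 15.3 and 21.2.

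**Figure D3:**
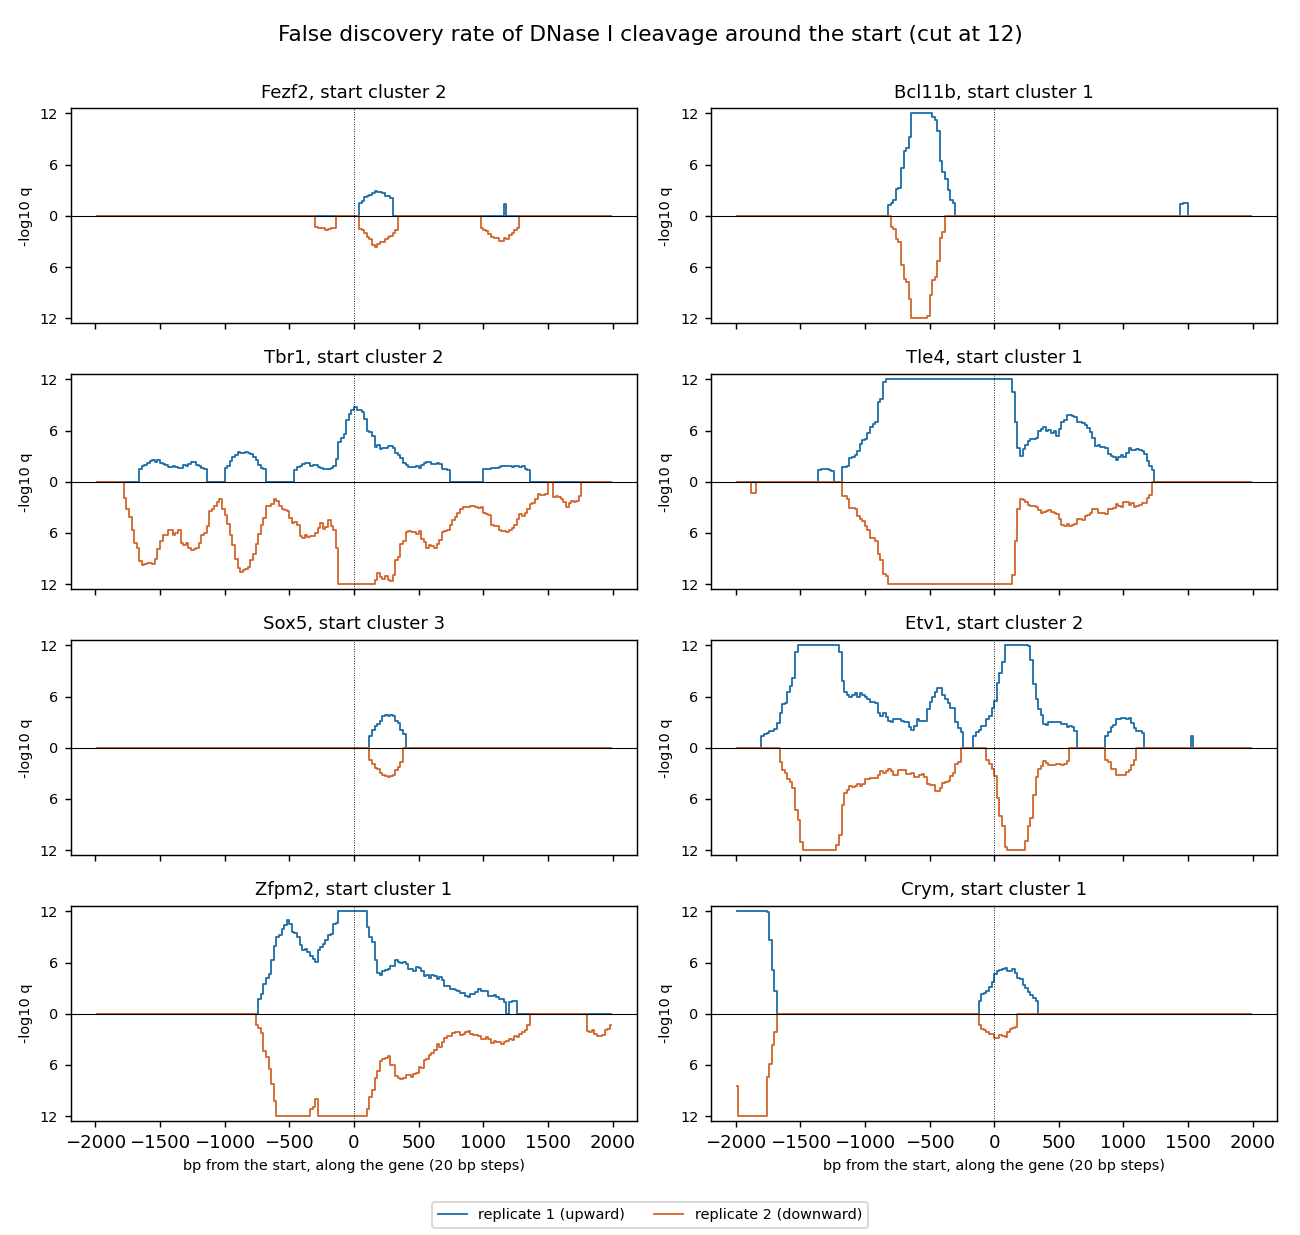
Lowest q per 20 bp step within 2 kb of the strongest start cluster of each gene, as −log10 and cut at 12, with replicate 1 upward and replicate 2 downward; steps with no listed interval are at 0. The Bcl11b interval lies upstream of its start, Tle4 and Zfpm2 are covered across theirs, and the Tbr1 stretch is covered far more fully in replicate 2.

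The windows of the 8 genes covered 2570 kb and held 175 peaks in replicate 1 and 184 in replicate 2. Of these, 140 (80.0%, Wilson 95% interval 73.5 to 85.3) and 139 (75.5%, 68.9 to 81.2) overlapped a peak of the other library by at least 1 bp. Elsewhere in the genome 78.7% and 76.3% did, so sharing around the 8 genes was near that of other peaks. The signal of the 140 shared sites differed between the libraries about as it did elsewhere: the median log2 ratio of replicate 1 over replicate 2 was −0.24 (SD 0.43) against −0.25 (0.43) for the rest. Of the 140, 8 (5.71%) differed more than 2-fold, against 3.90% of the shared sites elsewhere. All 8 were higher in replicate 2: 3 sites each of Tle4 and Zfpm2 and 2 of Sox5.

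**Figure D4:**
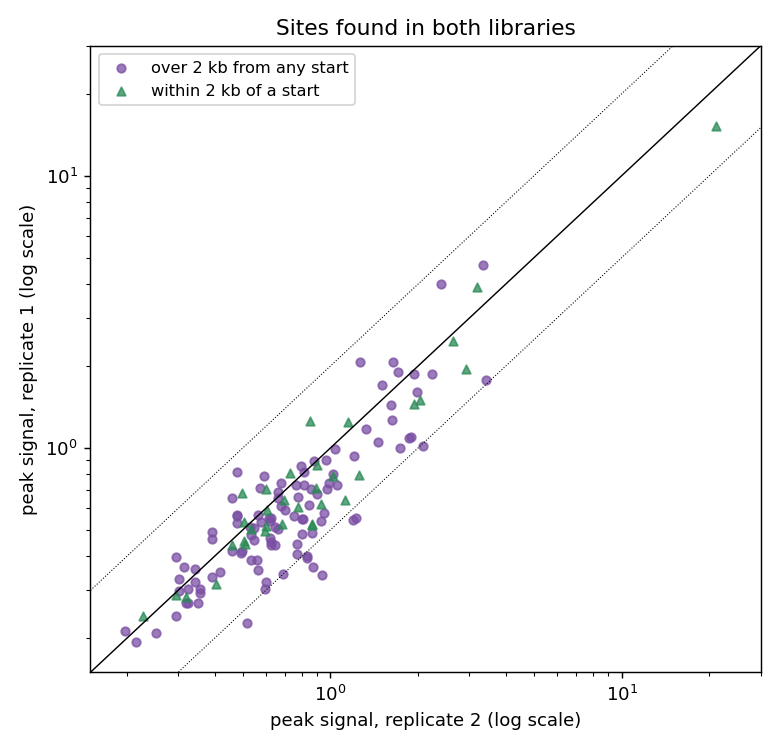
Signal of the 140 sites found in both libraries, replicate 1 against replicate 2, both on log scales, with sites over 2 kb from any start as circles and the others as triangles. The solid line marks equal values and the dotted lines a 2-fold difference; 34 sites lie above the solid line and 8 fall beyond the lower dotted line.

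Peaks of these genes were more often intronic than other peaks, 57.7% of them in replicate 1 and 62.0% in replicate 2 against 36.0% and 36.5% elsewhere, while 18.9% and 16.8% were intergenic against 33.2% and 33.8%. The windows are centred on genes, Sox5 alone spans 954 kb, and peaks elsewhere are not drawn from such windows. Of the 140 shared sites, 106 lay over 2 kb from any annotated start, 78 of them within the body of the gene itself, and Sox5 held 46, Bcl11b 20, Zfpm2 13, Tle4 11, Fezf2 and Tbr1 5 each, and Etv1 and Crym 3 each. Peaks that overlap one another are counted separately here, and without such overlaps there were 102, with 3 for Tbr1, 45 for Sox5, 12 for Zfpm2 and no change for the other genes. Their median signal (mean of both libraries) was 0.617, against 0.671 for the 78069 other distal shared sites. A signal above the 95th percentile of those other sites, 2.77, was reached by 2 of the 106, one in Bcl11b and one in Zfpm2. None of the 106 consisted of repeats for over 50% of its bases, which 2.94% of the other sites did.

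Bcl11b had the densest distal landscape. Its window held 23 distal peaks in replicate 1 and 24 in replicate 2, or 12.2 ± 0.366 per 100 kb, percentile 97.8 of all protein-coding genes, whose medians were 3.78 and 3.87. With 21 of 24 and 21 of 25 peaks shared, the libraries were close here, and 17 and 18 peaks were intronic. The strongest site, whose sequence is printed above, lies 4.67 kb into the gene, in an intron, and had 4.69 in replicate 1 and 3.34 in replicate 2, more than the promoter in both. It stood at percentile 98.3 of distal shared sites. A stretch of 29 bases in it, CTCGTCAGCTAGGGGGCGCTCGCTGCCCG, was called protected in both libraries. The next were a site 2.83 kb upstream of the start, with 1.87 and 2.23, and an intronic site 72.4 kb into the gene, with 1.87 and 1.94. Around the last, 4 shared peaks lay between 71.97 and 74.8 kb from the start, at signals from 0.535 to 1.94.

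Fezf2, the smallest gene of the set, had 10 peaks in each library, 7 of them shared. Its strongest distal site lies 51.6 kb from the outermost start, beyond the 3′ end, and had 1.78 in replicate 1 and 3.43 in replicate 2. It overlaps an exon of the gene models 3830406C13Rik and Gm49355, and which gene it serves was not tested. The start of 3830406C13Rik, a protein-coding gene in the same window, had its own peak of 1.25 and 0.854. Nearer to Fezf2, an intergenic site 7.68 kb from its outermost start had 0.658 and 0.774, close to the signal of the promoter, and a site in an intron of Cadps 45.6 kb upstream had 0.578 and 0.952.

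Sox5 had the most peaks, 66 in replicate 1 and 69 in replicate 2, but over a window of 1054 kb. Per 100 kb this came to 6.41 ± 0.201, percentile 34.4, and to 5.79 ± 0.403 for distal peaks, percentile 71.5. The strongest distal sites were an intronic one 725 kb from the outermost start, with 1.61 in replicate 1 and 1.99 in replicate 2, and one 33.1 kb upstream of the gene, with 1.70 and 1.50. Another lay 928 kb into the gene and had 1.01 and 2.08. Each of these exceeded every Sox5 promoter in the mean of both libraries.

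Zfpm2, with 24 peaks in replicate 1 and 23 in replicate 2 over 550 kb, had the fewest peaks per 100 kb of the 8, 4.28 ± 0.129 (percentile 22.3 of all protein-coding genes). Its strongest distal site lay 425 kb into the gene and had 4.01 and 2.40, against 1.25 and 1.25 at its own promoter. By the mean of both libraries, 3.20, this was the highest distal site of the 8 genes after that of Bcl11b (4.02), while in replicate 2 alone the Fezf2 site above was higher than both. Further intronic sites lay 375 kb from the start, with 2.06 and 1.26, and 414 kb from it, with 1.17 and 1.33. The motif of CTCF, the insulator protein that anchors chromatin loops, was found in footprints of both libraries at the first 2 of these sites. At the strongest it lies in the capitals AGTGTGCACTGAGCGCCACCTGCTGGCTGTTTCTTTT of the printed sequence, a stretch of 37 bases. Each Zfpm2 site with the motif was higher in replicate 1.

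Tle4 had 17 peaks in replicate 1 and 20 in replicate 2, or 7.40 ± 0.849 per 100 kb (percentile 40.9). The strongest distal site, 162 kb from the outermost start and past the 3′ end of the gene, had 1.10 and 1.89, and the site next to it had 0.706 and 0.860. A site 191 kb from the start had 0.706 and 0.971. Of the 11 distal shared sites of Tle4, 3 lay within the gene.

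Etv1 had 10 peaks in replicate 1 and 8 in replicate 2, 4.71 ± 0.740 per 100 kb (percentile 24.4). The strongest distal site, in an intron 10.8 kb from the outermost start, had 0.502 and 0.663, and its mean, 0.583, was the lowest among the strongest distal sites of the 8 genes. The next, 9.43 kb from the start, had 0.469 and 0.620, and the last, in an intron 54.4 kb from it, had 0.365 and 0.313. Crym had 9 peaks in replicate 1 and 7 in replicate 2, or 6.91 ± 1.22 per 100 kb (percentile 37.8). The strongest peak in its window, 3.89 and 3.18, lay 1.87 kb upstream of Crym at a start of Abca14, a protein-coding gene whose nearest start is 1.85 kb from that of Crym. The strongest distal site, 26.6 kb upstream and inside an intron of Abca14, had 1.00 and 1.74, and an intronic site 9.71 kb into Crym had 0.450 and 0.627. The last, in an intron of Abca14 35.2 kb upstream, had 0.242 and 0.295.

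**Figure D5:**
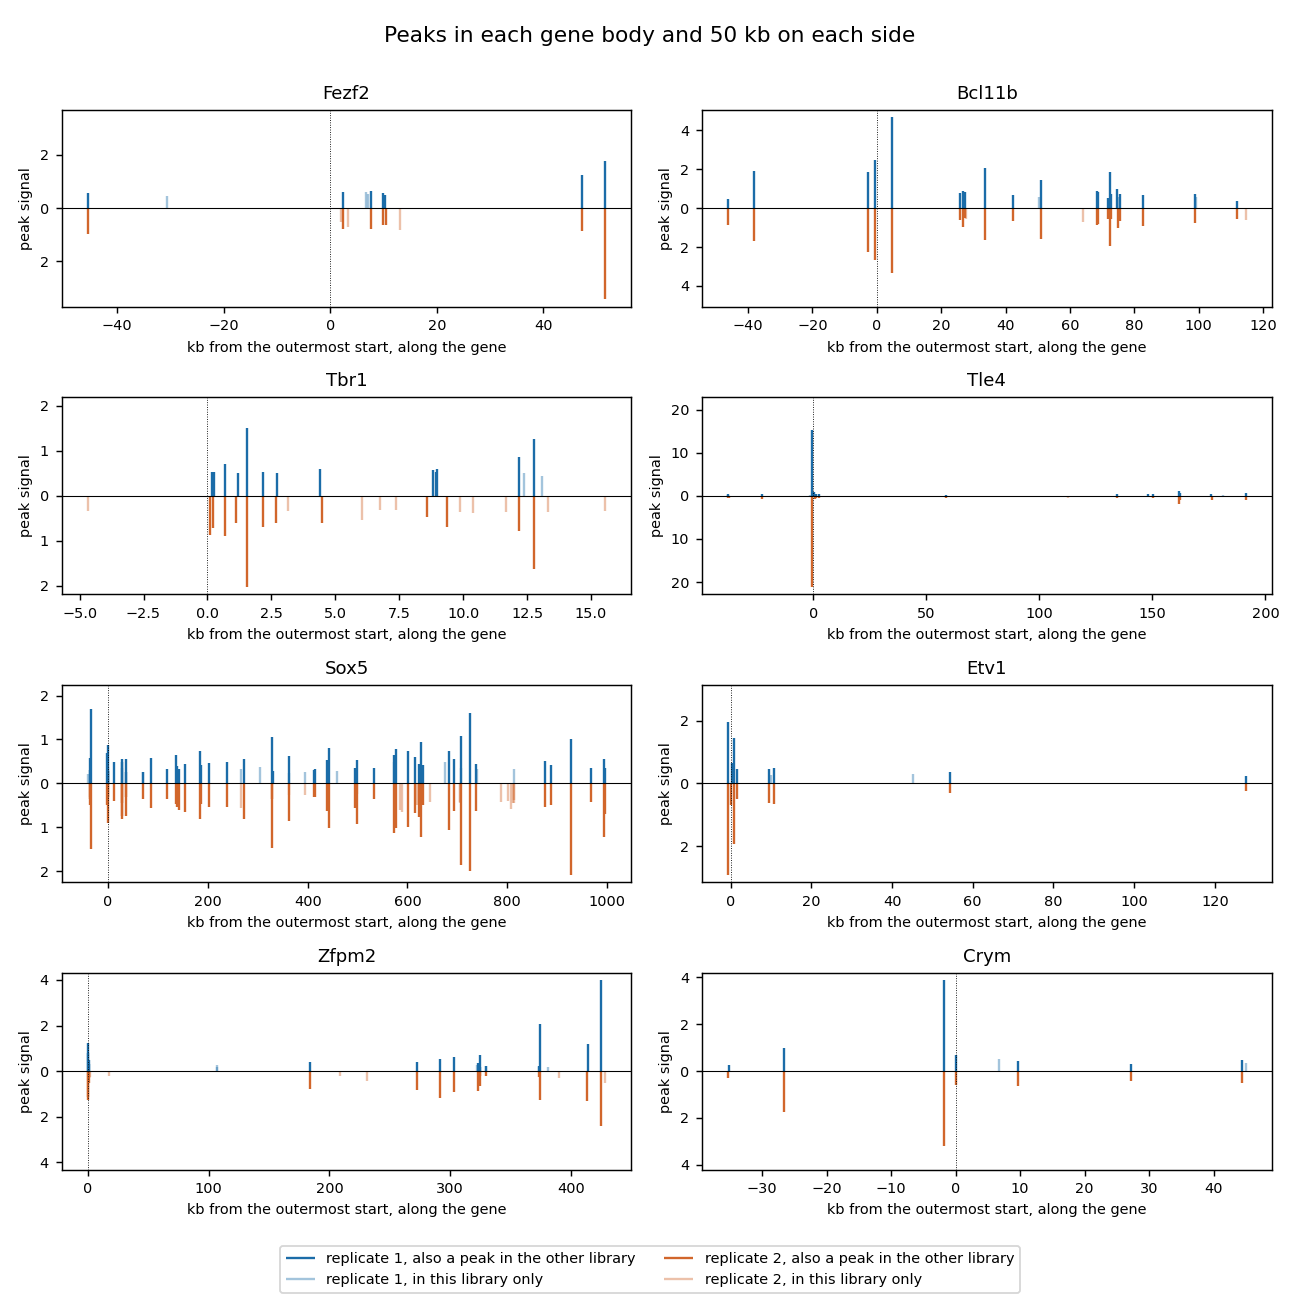
Peaks in the body of each gene and 50 kb on each side, by distance in kb from the outermost start along the gene, with signal upward for replicate 1 and downward for replicate 2; pale lines are peaks of 1 library only, and each gene has its own vertical scale. Tle4 is dominated by its promoter, Bcl11b and Zfpm2 have intronic sites above theirs, and the unshared peaks of Tbr1 belong mostly to replicate 2.

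Tbr1 differed most of the 8 between the libraries in the bases covered. Its window held 15 peaks in replicate 1 and 22 in replicate 2, and the stricter list held 4 and 15. Intervals with q up to 0.05 covered 3.98% of the window in replicate 1 and 7.22% in replicate 2, and those up to 0.001 covered 0.881% and 4.29%. Within the gene itself, which is 11.2 kb long, the shares were 31.2% and 54.1% at 0.05, and 5.35% and 34.3% at 0.001.

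The log2 ratio of covered bases, replicate 2 over replicate 1, was 2.26 for the Tbr1 window at q of 0.001 (20 bp added to both), percentile 99.0 of all protein-coding genes, whose median was −0.06 and 95th percentile 0.52. In the other 7 windows it lay between −0.39 (Crym) and 0.28 (Zfpm2). The heights of the main Tbr1 peaks differed much less. The promoter peak had a log2 ratio, replicate 1 over replicate 2, of −0.43, and the strongest distal site, at 1.26 in replicate 1 and 1.62 in replicate 2, had −0.36. That site lies 12.8 kb from the outermost start, past the 3′ end of the gene. Next to it, 12.2 kb from the start, a site had 0.862 in replicate 1 and 0.792 in replicate 2, and one over an exon 8.99 kb from the start had 0.592 and 0.700. The excitatory markers also had the higher summed promoter signal in replicate 2 (above). So had the microglial ones, with 1.35 in replicate 1 and 2.71 in replicate 2, and the oligodendrocyte ones, with 0 and 0.344. A missing peak counts as 0 in these sums. P2ry12 and Aif1 had a promoter peak in replicate 2 only, and Mog was the only oligodendrocyte gene with one. Of the microglial genes with a peak in both libraries, Csf1r had 0.748 and 0.651 and Cx3cr1 had 0.601 and 0.743. The inhibitory, astrocyte, endothelial, striatal and liver sums were lower in replicate 2. That of liver rested on Alb alone, with 0.275 in replicate 1 and no peak in replicate 2. The part of cell composition or of library quality in the Tbr1 difference was not tested.

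Footprints numbered 423 in replicate 1 and 429 in replicate 2 across the 8 windows, and 152 of them overlapped one of the other library by 50% of both, 35.9% and 35.4% against 41.1% and 41.2% in the rest of the genome. Searched on either strand with 5 bp added at each end, CAGATG, the E-box of NeuroD-type neuronal factors, was the most frequent of the 20 motifs in them. It was found in 19 footprints (4.49%) in replicate 1 and 20 (4.66%) in replicate 2, against 2.80% and 2.97% of all other footprints. Promoter footprints carry it less often in this genome, so footprints over 2 kb from any start were also compared: 17 of 309 (5.50%) and 20 of 318 (6.29%) held it, against 3.91% and 4.05% of the other distal footprints. These counts are small, the motifs were chosen with earlier results of these data known, and the difference was not tested.

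Sox5 carried 9 of the CAGATG footprints in each library, Tle4 3 in each, Tbr1 2 in each, Zfpm2 4 and 1, Bcl11b 0 and 3, and Fezf2 1 and 2. Etv1 and Crym had none in either library. At 10 shared sites the motif was in a footprint of both libraries, 6 of them in Sox5, 2 in Tle4 and 1 each in Fezf2 and Tbr1. Of the 10, 9 were higher in replicate 2, as were 106 of all 140 shared sites (75.7%). In the Fezf2 sequence printed above it is read on the gene's strand at positions 83 to 88, inside the capitals GATAGCAGATGGTAGCGGCGGG. In the Tbr1 sequence it is read on the opposite strand at positions 152 to 157, with 4 of its 6 bases in capitals.

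Motifs of factor families to which some of the 8 genes belong were rare in the footprints of their windows, as in footprints elsewhere. The SOX motif AACAAT was found in 1 footprint of each library. The T-box motif AGGTGT was found in 1 in replicate 1 and 3 in replicate 2, and the motif AGATAA of GATA factors, the partners of Zfpm2, in 2 and 1. The ETS motif CCGGAAGT was found in none of either library. Of the footprints elsewhere, at most 0.708% held any one of these. The T-box shares were 0.236% in replicate 1 and 0.699% in replicate 2, against 0.685% and 0.708% elsewhere. Those of GATA were 0.473% and 0.233%, against 0.290% and 0.283%. Elsewhere 0.174% and 0.196% of footprints held the ETS motif, and the SOX share was lower in the windows in both libraries. The counts are too small to set the windows apart from the rest, and the differences were not tested. A match is only a match of letters, and the absence of one says nothing of where a factor was bound. GGGCGGGG (SP and KLF), a motif of CpG-rich promoters, was found in 3 and 5 footprints, 0.709% and 1.17%, against 2.10% and 2.10% elsewhere. Among footprints over 2 kb from any start it was found in 1 of 309 (0.324%) and 3 of 318 (0.943%), against 0.435% and 0.432%. The lower share was thus not seen there in replicate 2. The CTCF motif was found in 3 footprints in each library, 0.709% and 0.699% against 1.29% and 1.19%. They lay at the pair of Zfpm2 sites above and at a site 38.2 kb upstream of Bcl11b, with 1.90 in replicate 1 and 1.71 in replicate 2.

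All 3 sites with the CTCF motif were higher in replicate 1, with log2 ratios of replicate 1 over replicate 2 of 0.15 (Bcl11b), 0.71 and 0.74 (Zfpm2), whereas 34 of the 140 shared sites (24.3%) were. Elsewhere in the genome, of 3309 other distal shared peaks with the motif in a footprint of both libraries, 81.7% were higher in replicate 1 (median log2 ratio 0.28), against 26.1% of the 74479 with it in neither (median −0.30). Where the motif was in a footprint of replicate 2, whether or not of replicate 1, 80.2% of 3386 peaks were higher in replicate 1. This is no separate check, since 3309 of the 3386 are the peaks with it in both. With the motif in a footprint of replicate 1 only, 73.0% of 204 peaks were higher in replicate 1. With it in replicate 2 only, 15.6% of 77 were. Peaks with the motif in both were taller, with a median mean signal of 1.67 against 0.653, and of the 9280 peaks in neither that stood above 1.67, 46.0% were higher in replicate 1. The part of peak height in the difference was not tested. This comparison was chosen after the values were seen.

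The 8 genes were set beside other genes of cortical layers, listed from textbook knowledge but with earlier results of these data known. The 8 had a median promoter signal of 1.38 in replicate 1 and 1.64 in replicate 2. Of 14 other deep-layer genes 12 were open, with medians of 1.40 and 1.67, while Nxph4 and Cplx3, both genes of the deepest layer, had no promoter peak in either library. Of 12 upper-layer genes all 12 were open, with medians of 2.80 and 2.60, and the highest was Pou3f3, a POU-domain factor, with 7.21 and 10.7. Distal peaks per 100 kb had a median of 5.15 in replicate 1 and 5.39 in replicate 2 over the 8 genes, 4.95 and 6.26 over the other deep-layer genes and 6.14 and 6.63 over the upper-layer genes.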

How the data were processed

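DNase-seq of left cerebral cortex was used from the 1 group with 2 libraries. Per the notes deposited with the files, the authors made every file from that library's own mm10 alignments without pooling. Neither aligner nor callers, nor any version, is named in the sources used here. The deposited signal of a peak is its height, which the authors scaled to depth. The deposited intervals give a q-value (false discovery rate) and end at 0.05. The score of the authors' deposited footprints was 0.01 throughout and was not used.

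The larger of the 2 peak lists of each library was used and the stricter one as an alternative. A peak was placed by its centre; a promoter peak overlapped the 1000 bp around any GENCODE M21 start. Percentiles are of the mean of both libraries. All 8 genes are named, with each start cluster and the 3 strongest distal shared sites. The genes, lists and motifs were chosen with earlier results of these data known. No genes of like pattern are named, since 1 condition holds no pattern. Intervals cover counting error only. Functions were tested on simulated data. Python 3.11.15, NumPy 2.4.6, pandas 2.3.3, SciPy 1.17.1 and Matplotlib 3.10.9 were used. Sequences were read from the RefSeq GRCm38 genome.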

Additional observations from a re-analysis of the deposited data

How the results depend on the processing

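Of 43 alternatives, 31 were classed as the same and 12 as moved, but values classed as the same could still differ widely. Among these, open start clusters were 10 with the stronger 50% of peaks and 20 with starts within 100 bp grouped, in place of 14. Shared sites were 100 over gene bodies alone, in place of 140. Shared footprints were 202 at an overlap of 1 bp, in place of 152. With the stricter peak list, 6 of the 8 genes kept a promoter peak in both libraries (Fezf2 was lost in replicate 1 and Crym in replicate 2), 8 start clusters were open in place of 14, 73 sites were shared in place of 140, and the median distal signal was 0.838 in place of 0.617. With the stronger 50% of peaks, 61 sites were shared, with a median of 0.901. Taking the outermost start alone left 7 of 8 genes, since Fezf2 is closed there. An overlap of 50% of both peaks lowered the mean shared share to 65.8%, from 77.8%. Over gene bodies alone, 91 footprints were shared in place of 152. The share of window bases at q of 0.05, 1.84%, was 2.09% with 10 kb on each side and 0.926% at q of 0.001. By either library alone, the median distal signal was 0.502 to 0.577 and the windows held 423 to 429 footprints, counted without the need to be shared. No paired analysis was possible because there is 1 group. Each SD rests on 2 libraries whose labels share a donor identifier, so it may not be a spread between animals. Depth in reads is not stated in the sources used here. The cause of the changes was not tested, beyond each alternative's own construction of fewer or more peaks.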
